A study of Mus musculus with 8 samples.

Results

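Translation initiation factors are the proteins that bring the small ribosomal subunit, the initiator tRNA and an mRNA together and join the large subunit to them. They were followed here in mature mouse eggs through the protein-coding genes whose GENCODE M21 symbol begins with Eif1 to Eif6. The cap-binding paralog Eif4e1b and the eIF2 kinases Eif2ak1 to Eif2ak4 were not counted among them. This gave 49 genes of the 24860 listed in every library, and 40 of the 49 reached a mean of 1 FPKM over the 8 libraries (FPKM, fragments counted, scaled by gene length and library total) and were tested. The other 9 stayed below that level.

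RNA came from mature, unfertilized MII oocytes, which wait in the second meiotic metaphase, taken from C57BL/6 females at postnatal day 42, or 6 weeks of age. The groups were Esrp1_KO, of the genotype Esrp1-/- for the splicing regulator gene Esrp1, with 4 libraries, and WT, labelled wild type, also with 4 libraries. No other allele and no agent is named in the labels, nor the way in which the knockout was made. Each library came from a tube of 15 oocytes whose cDNA was made with Smart-seq2, a full-length method primed on the poly(A) tail, so a lower value could be less RNA or RNA with a shorter tail, and tail length was not measured. The labels call the libraries biological replicates without saying how many females filled a tube, so the p-values measure the spread between tubes.

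Eukaryotic initiation begins when eIF4E binds the mRNA cap and, on the scaffold eIF4G, brings the RNA helicase eIF4A to it. The small subunit, carrying eIF1, eIF1A, eIF3, eIF5 and a complex of eIF2, GTP and initiator tRNA, then scans for a start codon. After start codon recognition eIF2 leaves as its GDP form and is recharged by the exchange factor eIF2B, while eIF5B joins the large subunit. Mature eggs do not transcribe, so their proteins come from stored mRNA whose translation is switched on and off during meiotic maturation.

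The stretches below show the sequence at the RefSeq start (GRCm38.p6) of the genes that the results turn on, from 150 bases before to 30 bases after it, in the direction of the gene. Eif1b and Eif1 are set together because these paralogs differed most in their change, and Eif4a3, Eif4e and Eif5 because they rose with 3 of the smallest p-values. For Eif4e the window of its second listed start is shown, which lies 1089 bases from the M21 start of the gene. That window alone holds the motifs counted for Eif4e, and the window of the first listed start, 12 bases from the M21 start, holds none of them. For genes with several listed starts a motif in any window was counted. Capitals mark matches on either strand to the GC box GGGCGG, the CCAAT box CCAAT, the E-box CACGTG, the ETS motif CCGGAAG or the TATA box TATAAA.
Eif1b (chr9:120492456-120492635, plus strand): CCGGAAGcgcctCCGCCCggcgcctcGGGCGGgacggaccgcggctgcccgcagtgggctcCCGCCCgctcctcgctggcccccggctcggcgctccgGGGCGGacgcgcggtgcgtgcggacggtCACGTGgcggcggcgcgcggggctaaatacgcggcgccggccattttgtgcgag
Eif1 (chr11:100319799-100319978, plus strand): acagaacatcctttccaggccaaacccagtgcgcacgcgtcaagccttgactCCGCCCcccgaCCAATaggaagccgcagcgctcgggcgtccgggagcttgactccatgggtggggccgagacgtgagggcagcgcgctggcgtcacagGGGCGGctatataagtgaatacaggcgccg
Eif4a3 (chr11:119300014-119300193, minus strand): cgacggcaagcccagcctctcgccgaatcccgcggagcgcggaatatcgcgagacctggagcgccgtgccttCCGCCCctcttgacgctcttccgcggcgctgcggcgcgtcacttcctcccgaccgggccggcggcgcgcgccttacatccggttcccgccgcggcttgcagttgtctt
Eif4e (chr3:138527118-138527297, plus strand): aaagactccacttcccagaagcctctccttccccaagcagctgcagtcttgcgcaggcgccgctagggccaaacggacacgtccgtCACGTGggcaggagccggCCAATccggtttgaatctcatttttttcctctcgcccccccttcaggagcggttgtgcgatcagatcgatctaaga
Eif5 (chr12:111537951-111538130, plus strand): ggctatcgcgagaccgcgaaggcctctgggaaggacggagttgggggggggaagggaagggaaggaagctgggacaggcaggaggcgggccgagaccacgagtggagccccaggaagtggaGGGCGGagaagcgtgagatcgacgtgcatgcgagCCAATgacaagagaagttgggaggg
RefSeq starts were at hand for 39 of the 49 genes, 6 of the 7 that rose among them. A GC box lay in 69.2% of the 39 genes, against 60.3% of tested genes and 33.6% of all 27025 genes in the same window. Promoter shares of tested genes cover only the 5799 whose symbol matched a RefSeq start. The ETS motif lay in 35.9% of the initiation factor genes, 18.3% of tested genes and 8.07% of all genes, and the E-box in 23.1%, 8.88% and 5.80%. A CCAAT box lay in 28.2%, 35.5% and 30.3%, and a TATA box in 2.56%, 4.90% and 9.78%. Of the 6 genes that rose, 5 had a GC box, 2 a CCAAT box (Eif4e and Eif5), 2 an E-box (Eif1b and Eif4e), 1 an ETS motif (Eif1b) and 0 a TATA box. No match of these motifs overlaps another in the printed stretches. A start within the first 10 bases of the transcript at a C followed by at least 4 pyrimidines, the form of the terminal oligopyrimidine start of ribosomal protein mRNAs, lay in 9 of the 39 genes (23.1%), in 21.1% of tested genes and in 19.5% of all genes. It lay in 0 of the 6 that rose and in 7 of the 25 tested genes with a start that did not pass.

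The libraries were of like depth. The read totals implied by the deposited values were 24910433 to 32337966 in Esrp1_KO and 25018182 to 28932109 in WT (exact two-sided permutation p = 0.514, n = 4 each). Esrp1 itself averaged 3.30 ± 0.68 FPKM in Esrp1_KO and 17.5 ± 1.42 FPKM in WT (SD, n = 4), with no overlap. Genes of the mitochondrial genome held 1.33 ± 0.35% of the summed FPKM in Esrp1_KO and 5.20 ± 0.17% in WT (exact two-sided permutation p = 0.0286, the smallest that 4 against 4 libraries can give). All values are shares of a library, so fewer molecules per egg and more RNA of other genes cannot be told apart. The 10 oocyte markers summed to 9232 to 11013 FPKM in Esrp1_KO and 7838 to 8834 FPKM in WT. Most of that sum was Oosp1, Gdf9 and Bmp15, which did not pass (limma, adjusted p below 0.05). Zp1, Zp2, Zp3 and Ooep rose, and Mos fell to 108 ± 15.7 FPKM in Esrp1_KO, against 204 ± 34.9 FPKM in WT. The 9 listed granulosa and cumulus markers summed to 1.80 to 2.92 FPKM in Esrp1_KO and 5.71 to 7.29 FPKM in WT, nearly all of it Cyp19a1. Ptgs2, not tested, went the other way, at 0.198 to 0.510 FPKM in Esrp1_KO and 0.0233 to 0.175 FPKM in WT. The 7 immune markers summed to 0.643 to 9.13 FPKM in Esrp1_KO, with Lyz2 at 5.44 FPKM in replicate 3, and to 0.367 to 1.59 FPKM in WT. The part of these differences in the results was not tested.

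Of the 40 tested initiation factor genes, 7 rose in Esrp1_KO eggs. Eif1b, a paralog of the start codon fidelity factor Eif1, rose 2.93-fold, Eif4a3, the helicase of the exon junction complex, 1.99-fold and Eif5, the GTPase-activating protein of eIF2, 1.43-fold. The cap-binding protein gene Eif4e, the eIF3 subunit gene Eif3i, Eif2a and the helicase gene Eif4a2 rose by smaller folds, and 0 genes fell. The 7 that rose were 17.5% of the 40 tested, against 13.9% of the 8021 genes tested across the series (limma, adjusted p below 0.05). Among all genes 23.1% fell, and 36.9% passed in either direction. At an unadjusted p below 0.05, 9 initiation factor genes were higher and 0 lower, against 18.4% and 28.2% of all tested genes. The share of genes that rose was thus near that of all genes.

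The 7 genes that rose were also those whose 4 Esrp1_KO values all lay above the 4 WT values, while 36.8% of all tested genes had groups that did not overlap, 13.5% with Esrp1_KO above and 23.3% with it below. The log2 fold change was above 0 in 25 of the 40 genes and below 0 in 15, with a median of 0.10 against −0.060 over all genes. This split depended on single libraries. Without WT replicate 1 it was above 0 in 30 genes (median 0.19 against −0.045), and without WT replicate 3 in 22 (0.074 against −0.069). The 13 genes with a mean of 50 FPKM or more held 5 of the 7 (all genes of that level, 19.7% higher and 18.9% lower). The 7 genes between 10 and 50 FPKM held the other 2 (15.1% and 23.9%), and none of the 20 genes between 1 and 10 FPKM passed (12.4% and 23.4%). With trimmed-mean scaling, which moved the median of all genes to 0.050, 10 genes rose and 0 fell, while 19.0% of all genes rose and 18.3% fell. With a common total of nuclear genes, which moved that median to −0.115, 5 rose and 0 fell, while 11.9% of all genes rose and 25.7% fell. The count of genes that rose thus moved in the same direction as that of all genes.

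**Figure D1:**
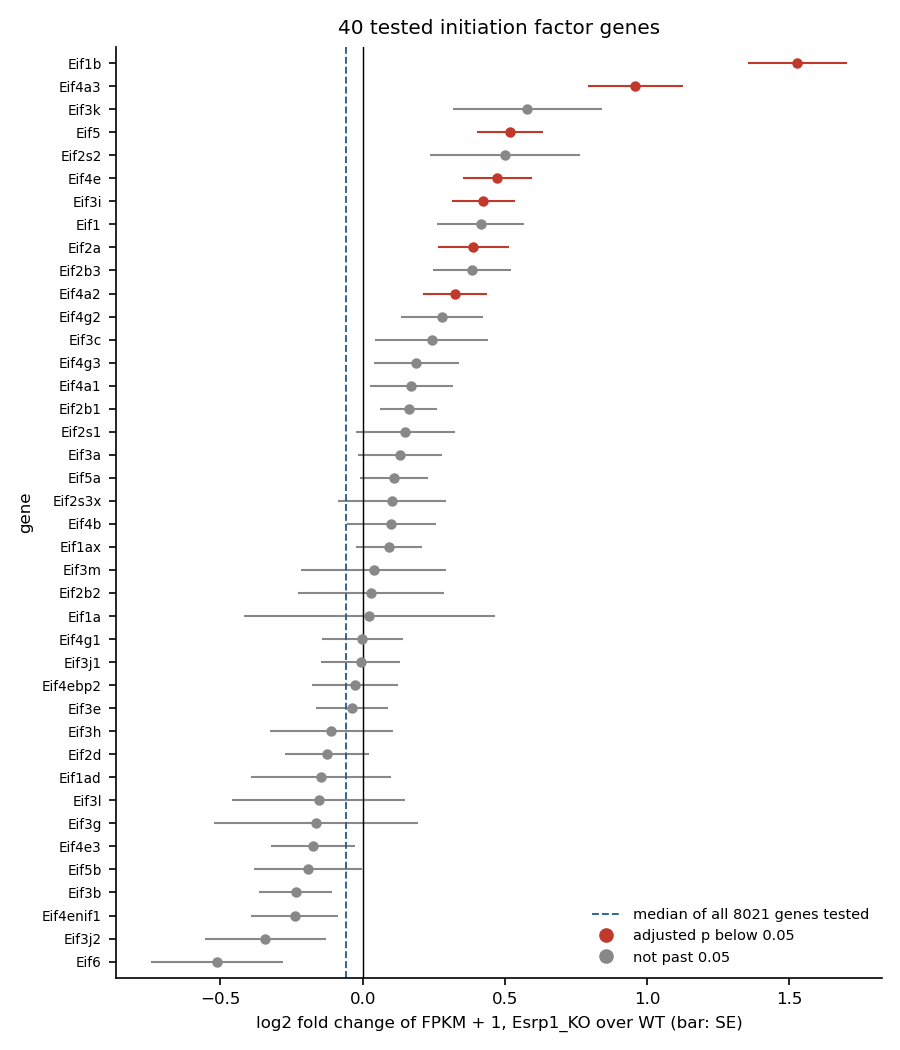
Log2 fold change of FPKM + 1 in Esrp1_KO over WT for the 40 tested genes, from highest to lowest, with the SE as a bar, red where the limma adjusted p is below 0.05 and grey otherwise. The dashed line is the median of all 8021 genes tested. Eif1b stands at the top with 1.53, all 7 red genes lie right of 0, and the lowest gene, Eif6 at −0.51, is grey.

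Summed over the 49 genes, the level was 1975, 2108, 2031 and 1981 FPKM in the Esrp1_KO libraries, against 1763, 1576, 1662 and 1624 FPKM in WT. Each Esrp1_KO library was above each WT library. The means were 2024 ± 61.6 FPKM in Esrp1_KO and 1656 ± 79.2 FPKM in WT (SD, n = 4), or 0.621 ± 0.0052% and 0.511 ± 0.032% of all FPKM. Without the 7 genes that rose the sums were 1308 ± 30.8 FPKM in Esrp1_KO and 1206 ± 68.1 FPKM in WT. The order of the genes by level was nearly the same in both genotypes (Spearman 0.983 and, on log2 levels, Pearson 0.991 across the 49 genes, which are not replicates). Eif2b1, Eif3e, Eif4a2 and Eif5 were the highest, held 43.4% of the summed level over all libraries and ranked 118, 253, 268 and 281 among the 24860 genes. The place of Eif3e rests on the length its FPKM were scaled by, given below.

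**Figure D2:**
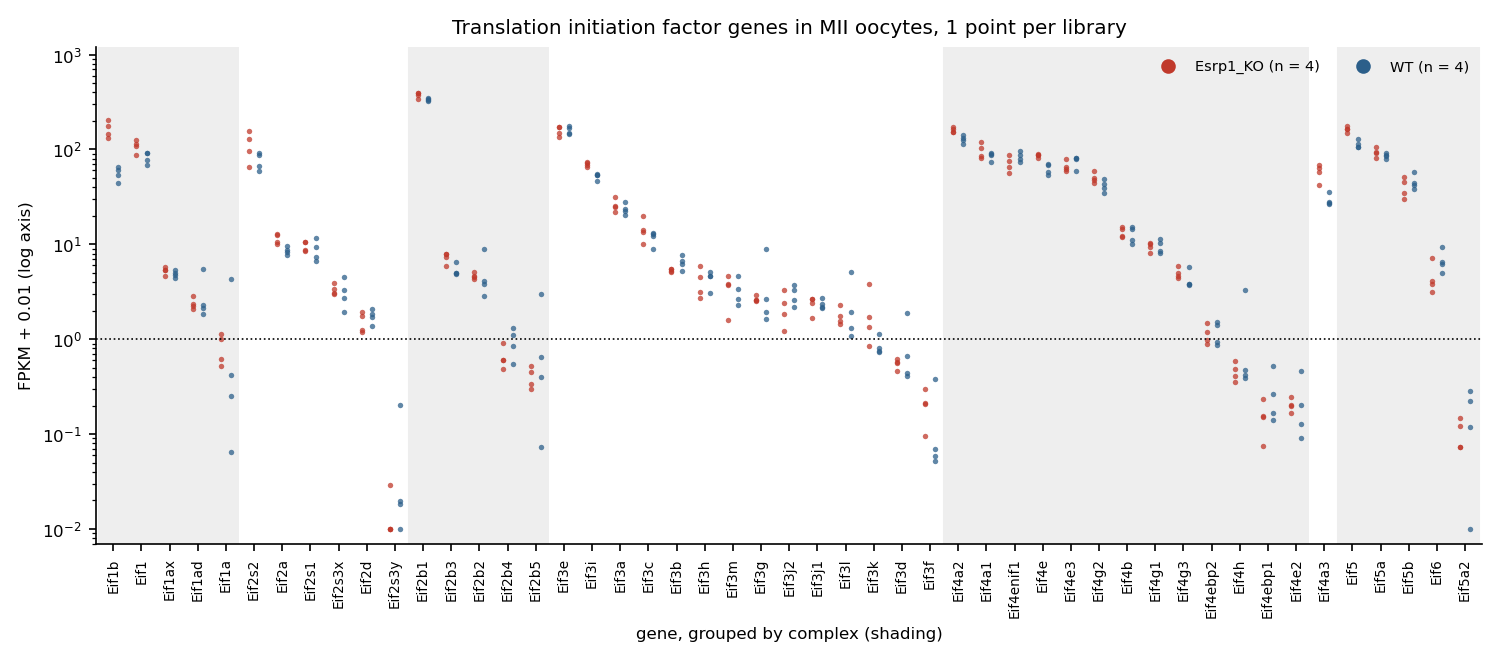
Level of each of the 49 genes, as FPKM + 0.01 on a log axis, with 1 point per library, Esrp1_KO in red left of WT in blue, genes grouped by complex and ordered by level. The dotted line is 1 FPKM. The genes span from Eif2b1, at 323 to 394 FPKM, down to the Y-linked Eif2s3y, at 0 in 4 libraries, and in several low genes a single WT point stands above the others.

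Among the factors that guard start codon choice, eIF1 and eIF1A, the change lay with Eif1b (ENSMUSG00000006941, chromosome 9, 120492232 to 120495330, plus strand). Eif1b had 131, 207, 175 and 144 FPKM in Esrp1_KO, against 44.3, 60.5, 65.3 and 53.8 FPKM in WT. All Esrp1_KO libraries lay far above all WT libraries, the nearest being Esrp1_KO replicate 1 and WT replicate 3. The means were 164 ± 33.7 FPKM in Esrp1_KO and 56.0 ± 9.08 FPKM in WT, a log2 fold change of 1.53 ± 0.18 (SE, limma adjusted p = 0.000179). It passed in all 18 alternatives, at 1.41 to 1.66. Between 4596 and 5788 reads per Esrp1_KO library and 1315 and 2067 per WT library stood behind it.

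Eif1, whose protein keeps the scanning subunit open until a start codon is paired, had 127, 109, 87.7 and 115 FPKM in Esrp1_KO, against 77.2, 67.7, 90.7 and 92.1 FPKM in WT. The groups overlapped through Esrp1_KO replicate 3, and the log2 fold change of 0.41 ± 0.15 did not pass (limma adjusted p = 0.0573). It passed without that library (0.52, adjusted p = 0.0282) and with trimmed-mean scaling (0.55, adjusted p = 0.0192). Eif1 made up 49.2%, 34.6%, 33.4% and 44.4% of the summed FPKM of Eif1 and Eif1b in Esrp1_KO, against 63.5%, 52.8%, 58.2% and 63.1% in WT. By FPKM, Eif1 was thus the minor of the pair in each Esrp1_KO library and the major one in each WT library. This depends on the length used, 2098 bases for Eif1 and 1125 for Eif1b. By reads Eif1 was the higher in each WT library and in Esrp1_KO replicates 1 (8597 against 4764) and 4 (6838 against 4596). It was slightly lower in Esrp1_KO replicates 2 (5698 against 5788) and 3 (5271 against 5638). Of the 50-base stretches of Eif1, 19.2% also occur in other genes. The log2 ratio of Eif1 to Eif1b differed by −1.11 (exact two-sided permutation p = 0.0286, the smallest that 4 against 4 libraries can give). It did not pass after adjustment over the 6 pairs compared (adjusted p = 0.171). A single pair at that smallest p cannot pass this adjustment, so the adjusted p decides nothing on this ratio.

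The eIF1A genes were low. Eif1ax, the X-linked gene, averaged 5.25 ± 0.48 FPKM in Esrp1_KO and 4.86 ± 0.41 FPKM in WT (0.093, limma adjusted p = 0.567). Eif1a had 1.13, 0.516, 0.606 and 0.995 FPKM in Esrp1_KO, against 4.27, 0.0555, 0.407 and 0.240 FPKM in WT, where replicate 1 stood far above the other libraries. Its log2 fold change was 0.023 (limma adjusted p = 0.971) with all libraries and 0.55 (adjusted p = 0.0355) without WT replicate 1. Eif1a reached the filter, at a mean of 1.03 FPKM, only through that library, and the filter was not redone without it. WT replicates 2, 3 and 4 held 4, 33 and 20 reads of it, so that pass has little weight.

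**Figure D3:**
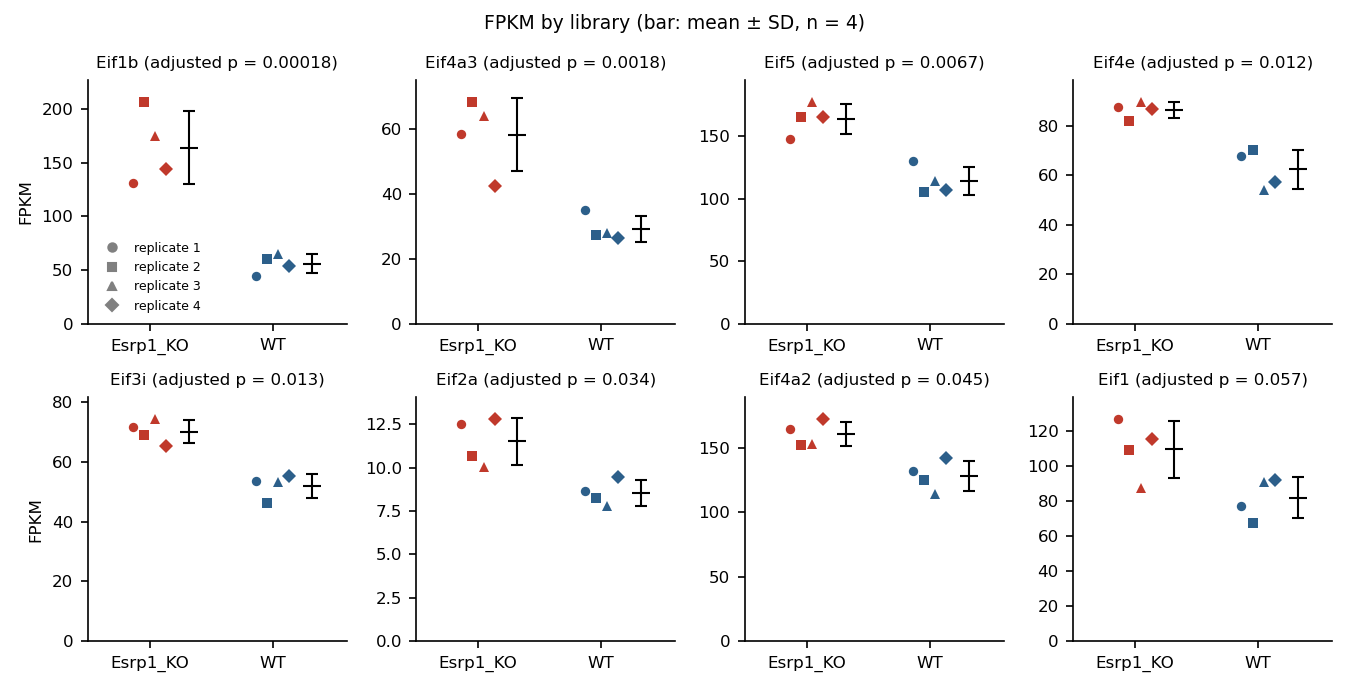
FPKM in each library for the 7 genes that rose and for Eif1, with Esrp1_KO left of WT, the marker shape giving the replicate number and the bar the mean ± SD (n = 4). In the first 7 panels each red point lies above each blue point, while in the Eif1 panel Esrp1_KO replicate 3 (87.7 FPKM) falls among the WT values. Each axis starts at 0.

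The eIF2 trimer, which carries the initiator tRNA, was listed far out of balance. Eif2s2, the gene of the beta subunit, was 10.2 times the level of the alpha subunit gene Eif2s1 and 29.3 times that of the gamma subunit gene Eif2s3x over all 8 libraries. Of the 50-base stretches of Eif2s3x, 34.6% also occur in other genes, so its level depends on how shared reads were counted. The trimer genes Eif2s1 and Eif2s3x did not pass (limma adjusted p = 0.536 and 0.703).

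Eif2s2 had 65.0, 157, 128 and 96.9 FPKM in Esrp1_KO, against 66.6, 86.9, 91.9 and 58.8 FPKM in WT. Replicates 2 and 3 were the higher ones in both genotypes, and Esrp1_KO replicate 1 fell among the WT values. Its log2 fold change of 0.50 ± 0.26 did not pass (limma adjusted p = 0.163), but it passed with the replicate number as a block (adjusted p = 0.0368) and without Esrp1_KO replicate 1 (0.73, adjusted p = 0.0244).

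Eif2a, which codes for a separate tRNA-binding protein outside the trimer (ENSMUSG00000027810, chromosome 3, 58525821 to 58557501, plus strand), had 12.5, 10.7, 10.1 and 12.8 FPKM in Esrp1_KO, against 8.66, 8.24, 7.76 and 9.49 FPKM in WT. The groups did not overlap, with a gap of less than 1 FPKM. The rise of 0.39 ± 0.12 on the log2 scale (limma adjusted p = 0.0338) lost its call without Esrp1_KO replicate 1 or 4 or without WT replicate 1, 2 or 3, at adjusted p = 0.0630 to 0.0930. Eif2d, a factor of alternative initiation and ribosome recycling, averaged 1.52 ± 0.37 FPKM in Esrp1_KO and 1.74 ± 0.30 FPKM in WT (limma adjusted p = 0.536).

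In eIF2B, which recharges eIF2 with GTP, the alpha subunit gene Eif2b1 made up 96.6% of the summed level of the 5 subunit genes. It was the highest of all 49 genes, with 393, 343, 372 and 394 FPKM in Esrp1_KO, against 347, 338, 333 and 323 FPKM in WT. Only Esrp1_KO replicate 2 lay within the WT range, and the log2 fold change of 0.16 ± 0.10 did not pass (limma adjusted p = 0.232). Its level was 56.4 times that of Eif2b3, the gamma subunit gene and the next in the complex.

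Eif2b3 had 7.26, 7.98, 7.92 and 5.91 FPKM in Esrp1_KO, against 6.45, 4.94, 4.87 and 5.04 FPKM in WT. WT replicate 1 was above the lowest Esrp1_KO library, and the log2 fold change of 0.39 ± 0.14 stood at an adjusted p of 0.0507 (limma). Without WT replicate 1 or without Esrp1_KO replicate 4 it passed, and it did so in 6 of the 18 alternatives. Eif2b2 did not pass (limma adjusted p = 0.941), and the catalytic epsilon subunit gene Eif2b5 and the delta subunit gene Eif2b4 stayed below a mean of 1 FPKM.

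eIF3, the large scaffold on the small subunit, had 14 genes, of which 12 were tested and 1 rose. Eif3i, a beta-propeller subunit gene (ENSMUSG00000028798, chromosome 4, 129591960 to 129600648, minus strand), had 71.8, 68.9, 74.2 and 65.5 FPKM in Esrp1_KO, against 53.5, 46.2, 53.3 and 55.2 FPKM in WT. The groups stood apart by more than the spread within either. The log2 fold change was 0.42 ± 0.11 (SE, limma adjusted p = 0.0132), and the gene passed with each single library left out (0.37 to 0.46).

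The 14 subunit genes, whose proteins share a complex, spanned a 982-fold range of level, with 4 at or above 10 FPKM and 10 below it. Eif3e alone made up 56.0% of their summed FPKM. Its deposited FPKM fit a length of 1541 bases, against 6719 bases for its M21 exons. Both this share and the 982-fold range rest on that length. By reads Eif3e, at 5669 to 7565 per library, was near Eif3i, at 4281 to 8597 with a length of 3702 bases. Eif3e had 135, 173, 171 and 148 FPKM in Esrp1_KO, against 178, 147, 151 and 168 FPKM in WT, and the groups overlapped throughout (−0.037 ± 0.13, limma adjusted p = 0.842). The sign of that value turned with trimmed-mean scaling (0.097).

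The genes of the large subunits shared with budding yeast were far lower than Eif3e in FPKM, at the lengths used. Eif3a averaged 25.9 ± 4.19 FPKM in Esrp1_KO and 23.5 ± 3.22 FPKM in WT, Eif3c 14.3 ± 4.02 and 11.7 ± 1.94 FPKM, and Eif3b 5.30 ± 0.20 and 6.47 ± 1.04 FPKM, and none of these 3 passed (limma adjusted p = 0.179 to 0.522).

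Eif3k, the gene of a small subunit, had 0.848, 3.85, 1.71 and 1.35 FPKM in Esrp1_KO, against 0.717, 1.13, 0.803 and 0.743 FPKM in WT. Replicate 2 was the highest library of both genotypes. Eif3k reached the filter only through the Esrp1_KO libraries, as its WT mean was 0.847 FPKM. The log2 fold change of 0.58 ± 0.26 did not pass (limma adjusted p = 0.110), but passed with the replicate number as a block (adjusted p = 0.0439) and without Esrp1_KO replicate 1 (0.77, adjusted p = 0.0354).

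Eif3j1 and Eif3j2, a pair of near-identical genes, averaged 2.34 ± 0.46 and 2.17 ± 0.87 FPKM in Esrp1_KO, against 2.33 ± 0.27 and 2.95 ± 0.70 FPKM in WT. Other genes hold 50.9% of the 50-base stretches of Eif3j1 and 91.8% of those of Eif3j2, so the split between them is uncertain. Neither passed (limma adjusted p = 0.974 and 0.237), and the sign for Eif3j1 turned with trimmed-mean scaling (0.087).

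At the cap, eIF4E binds the mRNA end and eIF4A unwinds the leader. Eif4e (ENSMUSG00000028156, chromosome 3, 138526179 to 138559696, plus strand) had 87.6, 81.9, 89.5 and 86.5 FPKM in Esrp1_KO, against 67.9, 69.97, 54.0 and 57.3 FPKM in WT. The Esrp1_KO libraries lay close together and above all WT libraries. The log2 fold change was 0.47 ± 0.12 (SE, limma adjusted p = 0.0123), and it passed with each single library left out (0.41 to 0.53).

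Eif4e3, a paralog with a divergent cap-binding pocket, did not rise with it. Its level was 78.6, 64.8, 59.7 and 61.7 FPKM in Esrp1_KO, against 80.9, 58.7, 79.1 and 81.8 FPKM in WT, overlapping through WT replicate 2 (−0.18 ± 0.15, limma adjusted p = 0.383). Eif4e was 56.7 ± 3.18% of the pair in Esrp1_KO and 45.4 ± 6.36% in WT. The difference of 0.65 in the log2 ratio did not pass (exact two-sided permutation p = 0.0571, adjusted p = 0.171). Eif4e2, the cap-binding competitor, stayed below a mean of 1 FPKM.

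Eif4a2, an eIF4A helicase gene (ENSMUSG00000022884, chromosome 16, 23107444 to 23114136, plus strand), had 165, 153, 153 and 172 FPKM in Esrp1_KO, against 132, 125, 115 and 142 FPKM in WT. The groups did not overlap, and replicates 1 and 4 were the higher ones in both. The rise of 0.32 ± 0.11 on the log2 scale (limma adjusted p = 0.0448) held with only 1 of the 8 single libraries left out, Esrp1_KO replicate 2, and stood at adjusted p = 0.0517 to 0.119 without any of the others. It also did not pass with quantile normalization (0.24, adjusted p = 0.134) or with a common total of nuclear genes (0.26, adjusted p = 0.129). Eif4a1, its close paralog, averaged 97.4 ± 17.6 FPKM in Esrp1_KO and 85.6 ± 7.53 FPKM in WT (0.17 ± 0.15, limma adjusted p = 0.393). Of its 50-base stretches 28.4% also occur in other genes. Its ratio to Eif4a2 differed by −0.15 on the log2 scale (exact two-sided permutation p = 0.286, adjusted p = 0.343).

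Eif4a3, named for its likeness to eIF4A, codes for the helicase that anchors the exon junction complex on spliced mRNA (ENSMUSG00000025580, chromosome 11, 119288363 to 119300089, minus strand). It had 58.5, 68.4, 64.2 and 42.5 FPKM in Esrp1_KO, against 35.2, 27.5, 28.0 and 26.4 FPKM in WT. The groups did not overlap, with Esrp1_KO replicate 4 nearest to WT. The means were 58.4 ± 11.4 FPKM in Esrp1_KO and 29.3 ± 4.01 FPKM in WT, a log2 fold change of 0.96 ± 0.17 (SE, limma adjusted p = 0.00178). It passed with each single library left out (0.877 to 1.102).

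The eIF4G scaffolds, which bridge cap and small subunit, did not pass. Eif4g2, whose product lacks the eIF4E-binding part, averaged 50.6 ± 6.51 FPKM in Esrp1_KO and 41.6 ± 6.08 FPKM in WT (0.28 ± 0.14, limma adjusted p = 0.155). Eif4g1 averaged 9.45 ± 1.013 and 9.52 ± 1.62 FPKM (adjusted p = 0.992), and Eif4g3 4.97 ± 0.62 and 4.27 ± 0.95 FPKM (adjusted p = 0.354). The log2 ratio of Eif4g1 to Eif4g2 differed by −0.28 (exact two-sided permutation p = 0.2, adjusted p = 0.3) and that to Eif4g3 by −0.19 (exact p = 0.429, adjusted p = 0.429).

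Eif4enif1, the eIF4E transporter that holds eIF4E in repressed mRNA granules, had 88.3, 57.1, 65.7 and 74.6 FPKM in Esrp1_KO, against 95.1, 78.9, 74.3 and 86.8 FPKM in WT (−0.24 ± 0.15, limma adjusted p = 0.249). The groups overlapped, and replicates 1 and 4 were the higher ones in both. The helicase cofactor gene Eif4b (13.5 ± 1.58 FPKM in Esrp1_KO and 12.6 ± 2.50 FPKM in WT) and the eIF4E inhibitor gene Eif4ebp2 (1.12 ± 0.26 and 1.17 ± 0.32 FPKM) did not pass either (adjusted p = 0.650 and 0.913).

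**Figure D4:**
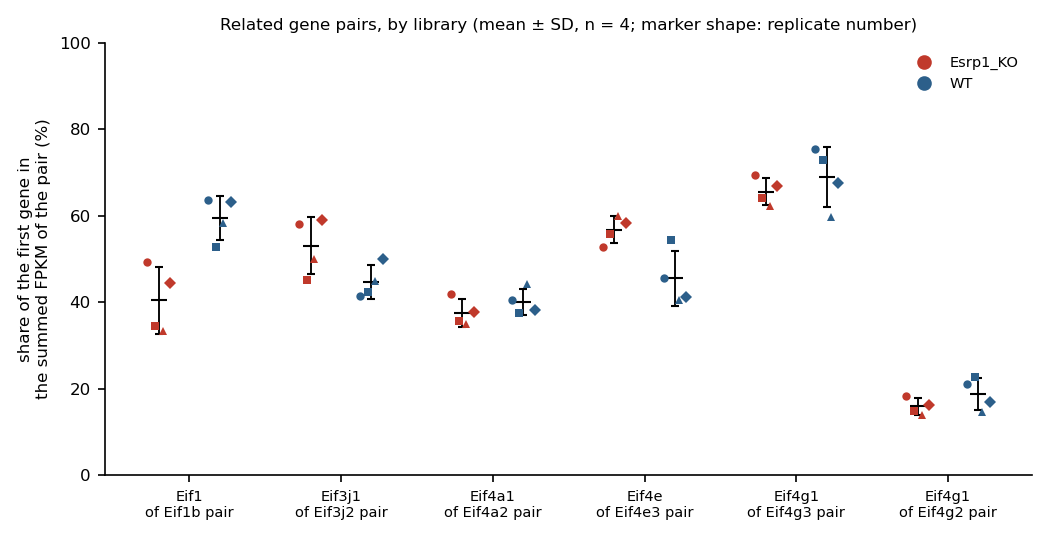
Share of the first gene in the summed FPKM of each of the 6 tested pairs of related genes, in percent, by library, with Esrp1_KO left of WT, the marker shape giving the replicate number and the bar the mean ± SD (n = 4). Only in the Eif1 and Eif1b pair do the groups not overlap, with the Esrp1_KO libraries at 33.4% to 49.2% and the WT libraries at 52.8% to 63.5%.

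Of the factors of start codon recognition and subunit joining, Eif5 rose (ENSMUSG00000021282, chromosome 12, 111538016 to 111546752, plus strand). Its product makes eIF2 hydrolyse GTP. It had 148, 165, 177 and 165 FPKM in Esrp1_KO, against 130, 106, 115 and 107 FPKM in WT. No Esrp1_KO library fell into the WT range. The log2 fold change was 0.52 ± 0.12 (SE, limma adjusted p = 0.00667), and it passed with each single library left out (0.48 to 0.58).

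Eif5a, the hypusine-carrying elongation factor, averaged 93.5 ± 10.9 FPKM in Esrp1_KO and 86.2 ± 4.79 FPKM in WT. Eif5b, the GTPase of subunit joining, averaged 40.1 ± 9.47 FPKM in Esrp1_KO and 45.6 ± 8.50 FPKM in WT, and 16.8% of its exon length overlaps Rev1 on the other strand. Neither passed (limma adjusted p = 0.506 and 0.460). Eif6, which keeps free large subunits from joining, had 7.08, 3.83, 3.13 and 4.11 FPKM in Esrp1_KO, against 9.46, 6.18, 5.04 and 6.52 FPKM in WT. Each Esrp1_KO library was below the WT library of its number, while the groups overlapped. The log2 fold change of −0.51 ± 0.23 did not pass (limma adjusted p = 0.110), but passed with the replicate number as a block (adjusted p = 0.00955) and without Esrp1_KO replicate 1 (−0.71, adjusted p = 0.0191).

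Replicates 1 and 4 stood apart from replicates 2 and 3 in both genotypes for 8 of the 40 tested genes (20%), and for 25.1% of all tested genes. Eif4a2, Eif4enif1, Eif2a and Eif6 were higher in replicates 1 and 4, and Eif1b, Eif2s2, Eif3c and Eif3k higher in replicates 2 and 3. Within replicates 1 and 4 alone the log2 fold change was 1.48 for Eif1b, 0.69 for Eif4a3, 0.40 for Eif5, 0.48 for Eif4e, 0.33 for Eif3i, 0.44 for Eif2a and 0.30 for Eif4a2, and Eif1b passed (limma adjusted p = 0.00691). Within replicates 2 and 3 alone it was 1.58, 1.23, 0.63, 0.47, 0.52, 0.34 and 0.35 for the same genes in that order, and Eif1b, Eif4a3 and Eif5 passed with Eif2s2 (limma adjusted p = 0.00502 to 0.0458). All 7 genes were higher in Esrp1_KO within both sets of replicates, which follows from their groups not overlapping and is no further support.

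The 9 genes below a mean of 1 FPKM were Eif2b4, Eif2b5, Eif2s3y, Eif3d, Eif3f, Eif4e2, Eif4ebp1, Eif4h and Eif5a2. In 0 of them did the groups stand apart. Eif3d and Eif3f code for eIF3 subunits and Eif4h for a helicase cofactor. Eif3d had 0.547 ± 0.065 FPKM in Esrp1_KO and 0.836 ± 0.69 FPKM in WT, with 37.2% of its 50-base stretches found in other genes. In 7 of the 9, and in 30 of all 49 genes, WT replicate 1 was the highest WT library, while this held for 35.4% of all genes and 25.0% of tested genes. Among the 20 tested genes below 10 FPKM it held for 15, against 26.5% of all tested genes below 10 FPKM. The same library had 20047 genes above 0, against 17255 to 18090 in Esrp1_KO and 15201 to 18100 in the other WT libraries.

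Over 6 lists of genes that act before, beside or after the initiation factors, 11 of 62 tested genes rose (17.7%) and 9 fell (14.5%), against 13.9% and 23.1% of all tested genes. The counts below stand beside those shares and single out no list. Of 13 tested genes of the list on eIF2 kinases and their reversal, 2 rose and 0 fell, neither of them a kinase gene. Eif2ak1 and Eif2ak4 were tested and did not pass (limma adjusted p = 0.0902 and 0.3005), and Eif2ak2 and Eif2ak3 stayed below the filter. In both of these untested genes each Esrp1_KO value lay below each WT value, as in 23.3% of all tested genes. Eif2ak3 averaged 0.551 ± 0.056 FPKM in Esrp1_KO and 0.988 ± 0.13 FPKM in WT, and Eif2ak2 0.045 ± 0.030 and 0.173 ± 0.058 FPKM. Impact, which restrains the eIF2 kinase GCN2, averaged 6.88 ± 1.68 FPKM in Esrp1_KO and 2.21 ± 1.26 FPKM in WT (limma adjusted p = 0.00283), and Ppp1ca, a catalytic subunit of the phosphatase, 36.2 ± 5.43 FPKM in Esrp1_KO and 23.2 ± 5.06 FPKM in WT (adjusted p = 0.0171). Of 9 tested genes of mTOR and MNK signalling, which acts on eIF4E and its inhibitors, 3 rose and 2 fell. Mknk2, an eIF4E kinase gene, averaged 2.28 ± 0.64 FPKM in Esrp1_KO and 0.590 ± 0.17 FPKM in WT (adjusted p = 0.00109), and Rheb, the GTPase that activates mTOR, 130 ± 14.5 and 85.7 ± 11.1 FPKM (adjusted p = 0.00770). Akt1s1, an mTOR inhibitor gene, rose as well. Mknk2 and Akt1s1 (0.874 ± 0.45 FPKM in WT) reached the filter only through the Esrp1_KO libraries, the group where they are high, so these rises have less weight. The S6 kinase gene Rps6kb1 fell to 9.14 ± 0.72 FPKM in Esrp1_KO, against 13.4 ± 1.34 FPKM in WT (adjusted p = 0.00852). The other eIF4E kinase gene Mknk1 also fell.

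Of 12 tested genes for cap-binding repressors and eIF4E partners, 2 rose (Zfp598 and Ncbp2) and 2 fell. Angel2, a member of a deadenylase-like family, fell to 138 ± 35.4 FPKM in Esrp1_KO, against 212 ± 30.1 FPKM in WT (limma adjusted p = 0.0243), and the repressor helicase gene Ddx6 to 3.29 ± 0.74 FPKM, against 5.13 ± 0.76 FPKM in WT (adjusted p = 0.0275). Of 9 tested genes for poly(A)-binding proteins and their partners, 2 rose, Pabpc1l and Larp4b. Of 8 genes of reinitiation and non-canonical initiation, 2 fell. Dhx29, a helicase of the scanning subunit, fell to 6.02 ± 0.93 FPKM in Esrp1_KO, against 9.57 ± 1.80 FPKM in WT (adjusted p = 0.0155), and Ltv1, which acts in maturation of the small subunit, fell too.

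Of 11 tested elongation and termination factor genes, 2 rose and 3 fell. Abce1, the ATPase that splits ribosomes after termination, averaged 13.0 ± 1.013 FPKM in Esrp1_KO and 4.22 ± 1.77 FPKM in WT (limma adjusted p = 0.000633), and the eEF2 kinase gene Eef2k rose as well. Etf1, the release factor that reads stop codons, fell to 17.7 ± 0.95 FPKM in Esrp1_KO, against 28.2 ± 1.61 FPKM in WT (adjusted p = 0.00129). Eef1b2, an exchange factor of elongation, fell to 5.18 ± 0.64 FPKM, against 9.24 ± 1.97 FPKM in WT (adjusted p = 0.00790), and the ribosome rescue gene Hbs1l fell too. The median log2 fold change of these lists lay between −0.19 (cap-binding repressors) and 0.33 (mTOR and MNK signalling), against −0.060 over all genes, and the deoxyhypusine enzyme genes Dhps and Dohh were not tested, being below a mean of 1 FPKM.

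Some calls in these lists rested on single libraries (limma, largest adjusted p with 1 left out). That of Eef2k was lost without WT replicate 3 (0.0520) and that of Akt1s1 without Esrp1_KO replicate 4 or WT replicate 2 or 3 (0.0693). Angel2 (0.0694) and Mknk1 (0.0869) were lost without Esrp1_KO replicate 2 or 3 or WT replicate 1 or 4. Zfp598 (0.0739) was lost without Esrp1_KO replicate 2 or 3 or WT replicate 1, 3 or 4, and Ddx6 (0.0767) without Esrp1_KO replicate 1 or 2 or WT replicate 1, 3 or 4. Ncbp2 (0.133) held only without Esrp1_KO replicate 1 or WT replicate 2, Larp4b (0.115) only without Esrp1_KO replicate 1 and Ltv1 (0.104) only without Esrp1_KO replicate 2. With trimmed-mean scaling Angel2 (0.0603), Ddx6 (0.0752), Mknk1 (0.0780) and Ltv1 (0.0895) also lost their call, as did Ddx6 (0.0723) and Ltv1 (0.0670) with quantile normalization. With a common total of nuclear genes the rises of Larp4b (0.0933) and Ncbp2 (0.0759) lost it.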

How the data were processed

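Per the file headers, the authors deposited FPKM, 1 value for each gene and library. The build was GRCm38, per the submitters' processing notes, and which aligner and counter were used is not given in the sources used here. Ensembl IDs were given GENCODE M21 symbols. About 90% of values above 0 were whole reads, within 0.02 of a read, when multiplied by exon length and depth, which gave the library totals and a voom fit on recovered reads as an alternative (intervals beyond the replicate SD are not given, since reads are not independent molecules). For 10 of the 49 genes, Eif3e among them, the deposited values fit a length other than that of the M21 exons.

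Genotype was compared with limma 3.58.1 (R 4.3.3, trended variance, no other term) on log2(FPKM + 1) in the 8021 genes whose mean reached 1 FPKM, with two-sided p-values adjusted by Benjamini-Hochberg over them and called below 0.05. The pseudocount shrinks the fold changes of low genes. Ratios of 6 gene pairs, both genes at a mean of 1 FPKM or more, were compared by exact permutation over the 70 arrangements. The fit was first tested on simulated data with independent normal noise and few changed genes. These lacked the high WT replicate 1 and the shared replicate pattern seen here, so that test does not vouch for the calls. Alternatives changed the pseudocount (0.1), the filter, the scaling (trimmed mean of M values, quantiles, nuclear total), the block or the libraries used.

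The members, lists and tests were chosen with earlier results of these data known. Every gene past the threshold was named, with tested pair members, the highest gene of each complex and the 3 smallest p-values among the others, and up to 3 genes with the smallest p from each pathway list, of which those past the threshold are given. Further genes, among them the other called genes of these lists, were named after their values were seen. Sharing of 50-base stretches with other M21 genes was computed for the 49 genes, and a share above 20% marks 6 of them (Eif2s3x, Eif3d, Eif3h at 20.3%, Eif3j1, Eif3j2 and Eif4a1). Smart-seq2 does not mark strand, so overlapping genes cannot be told apart; 13.3% of the exon length of Eif4a2 and 12.7% of that of Eif1b overlaps another gene, and 43.3% of Eif3d. The replicate numbers, taken from the labels, were used as pairs in an alternative. The deviations of same-numbered libraries from their group means correlated at 0.262, 0.317, 0.226 and 0.261 over genes. Libraries of unlike number correlated at 0.017 to 0.402 within replicates 1 and 4 or within 2 and 3. Across these sets they correlated at −0.407 to −0.126. The highest value was that of Esrp1_KO replicate 1 with WT replicate 4, so pairing by number is not established. No label names a shared day or litter. Promoter stretches come from RefSeq (GRCm38.p6).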

Additional observations from a re-analysis of the deposited data

Results flagged for a closer look

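Each gene was examined in each group for a library that stood apart from the other 3 by a gap close to the whole range, which made 98 gene and group combinations, and chance flags about 1 in 20. In all, 10 stood apart. The share of all genes flagged by this rule is not given here, so the count is not read as an excess among these genes. In 7 of the 10 the high library was WT replicate 1, which was also the highest WT library in 35.4% of all genes. Eif1a, an eIF1A gene, had 4.27 FPKM there, against 0.0555 to 0.407 FPKM in the other WT libraries. Eif1ad had 5.54 FPKM there, against 1.81 to 2.28. Eif2b3 had 6.45 FPKM, against 4.87 to 5.04, and Eif3g 8.98 FPKM, against 1.64 to 2.65. Among the genes below the filter, Eif4h had 3.29 FPKM in that library, against 0.384 to 0.461, Eif3f 0.367 FPKM, against 0.0415 to 0.0598, and the Y-linked Eif2s3y 0.191 FPKM, against 0 to 0.00961. Ddx3y, a Y-linked gene of the reinitiation list and not among the genes examined here, had 0.226 FPKM in WT replicate 1 and 0 in every other library. The eggs came from females, so the values of these Y-linked genes cannot be taken as levels in them. Eif2s3y held 21 reads in WT replicate 1, and their source was not tested.

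The other 3 of the 10 flags were spread over the libraries. Eif2s3y had 0.0193 FPKM, or 2 reads, in Esrp1_KO replicate 2 and 0 in the other Esrp1_KO libraries. Where the others are all 0, any value above 0 is flagged, so the chance rate given above does not hold for this flag. Eif4e3, the divergent cap-binding paralog, was low in WT replicate 2, with 58.7 FPKM against 79.1 to 81.8 FPKM. Eif4g3, a scaffold gene, was high in WT replicate 3, with 5.70 FPKM against 3.76 to 3.85 FPKM.

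The 8 listed 2-cell embryo markers, beside the high values of WT replicate 1, summed to 32.2 FPKM in that library, within the 31.4 to 43.0 FPKM of the Esrp1_KO libraries and the 30.7 to 47.8 FPKM of all WT libraries. Nearly all of that sum was Tcstv1 and Tcstv3 (22.4 and 7.25 FPKM in WT replicate 1), so it says little of the others. Tdpoz4 had 0.852 FPKM in WT replicate 1 and 0 in the other WT libraries, and so did the granulosa marker Amhr2, with 0.720 FPKM. The cause was not tested.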

How the results depend on the processing

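Over 18 alternatives (1 of them, replicates 2, 3 and 4 of both groups, chosen after seeing the data) the number of initiation factor genes that rose ranged from 1 to 10 and the number that fell from 0 to 1. Leaving out single libraries gave 5 to 7 higher and 0 to 1 lower, the 1 being Eif6 without Esrp1_KO replicate 1. With replicates 1 and 4 alone 1 rose (all genes 676 higher and 1350 lower), and with replicates 2 and 3 alone 4 rose (all genes 584 higher and 905 lower), with fewer libraries in each. Replicates 2, 3 and 4 of both groups gave 5 higher and 1 lower. The replicate block gave 9 higher and 1 lower (17.2% and 25.3% of all genes, against 13.9% and 23.1% without it), adding Eif2s2, Eif3k and Eif6, and changed no other call among these genes. Over all genes, leaving out single libraries gave 896 to 1112 higher and 1515 to 1816 lower.

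Among 21 initiation factor genes and 18 alternatives, 312 of 378 values kept direction and call, 29 lost the call, 18 gained it and 19 turned sign. All sign turns were in Eif3e, Eif3j1 and Eif4g1, none of which passed in any alternative. Without single libraries they ranged from −0.087 to 0.031, −0.056 to 0.096 and −0.073 to 0.084. With trimmed-mean scaling they were 0.097, 0.087 and 0.12. With quantile normalization Eif3j1 was 0.11 and Eif4g1 0.085. With replicates 2 and 3 alone Eif3e was 0.21 and Eif3j1 0.048, with replicates 1 and 4 alone Eif4g1 was 0.0075, and with replicates 2, 3 and 4 the 3 genes were 0.082, 0.097 and 0.056. The cause was not tested. Of the pathway genes, 90 of 360 values lost their call and 0 turned sign. The 19 other tested genes, none past the threshold with all libraries, turned sign 43 times.

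Eif1b passed in all 18 alternatives, Eif4a3 and Eif5 in 17, Eif4e and Eif3i in 16, Eif2a in 8 and Eif4a2 in 5. The 6 pair ratios were computed in 12 alternatives. They did not pass after adjustment in the 9 tested by exact permutation of libraries (8 leaving out 1 library and 1 with a pseudocount of 0.1). In these, too, a single pair at the smallest possible exact p could not pass after adjustment over the 6 pairs. A sign-flip test over the 4 pairs of the replicate block cannot go below an exact p of 0.125, and the 2 sets of 2 replicates were given no test. The ratio of Eif4a1 to Eif4a2 turned to 0.029 with replicates 1 and 4 alone and was −0.34 with replicates 2 and 3 alone. Without single libraries the ratio of Eif1 to Eif1b ranged from −1.29 to −0.97, Eif3j1 to Eif3j2 from 0.25 to 0.44, Eif4a1 to Eif4a2 from −0.24 to −0.071, Eif4e to Eif4e3 from 0.56 to 0.82, Eif4g1 to Eif4g2 from −0.41 to −0.17 and Eif4g1 to Eif4g3 from −0.36 to −0.059. Changes of low genes rest on few reads, and the FPKM of a library depend on its other genes.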
